A study of Mus musculus with 127 samples.

Results

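Translation initiation factors bring the ribosome to the start codon of an mRNA, and elongation factors carry it along the reading frame. eIF4E, eIF4G and eIF4A bind and unwind the capped end of the mRNA, eIF2 delivers the initiator tRNA, eIF3 is the large scaffold on the small ribosomal subunit, and eIF1 and eIF1A guide the search for the start codon. In elongation, eEF1A delivers aminoacyl-tRNAs, eEF1B recharges eEF1A, eEF2 moves the ribosome by one codon, and eIF5A helps at sequences where the ribosome stalls. Neutrophil precursors are known for making their granule proteins in successive waves and for losing much of their ribosome content as they mature.

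These genes were examined in 127 single cells of wild-type C57BL/6 mouse bone marrow. Members were all rows of the deposited table whose symbol begins with Eif1 to Eif6 or with Eef, apart from the Y-linked eIF2 subunit gene. They came to 63 of 23946 genes, and 60 were detected in at least 1 cell, where detection means 1 TPM or more. By symbol alone, the 54 Eif rows are counted as initiation and the 9 Eef rows as elongation. The Eif rows thus include Eif5a, placed in elongation above, and regulators such as the eIF2 kinases. TPM gives a gene's part of all transcripts in a cell, corrected for transcript length. Results for single genes are given for the 55 members detected in 10% or more of the cells, of 6602 genes that passed the same filter.

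The cells carry 3 sort labels within a marrow population that the labels call GMP-P, with 40 cells labelled CD11b+, 46 labelled CD11b+ and Ly6g high, and 41 labelled CD11b+ and Ly6g low. CD11b is an integrin of myeloid cells and Ly6g a surface protein of granulocytes. All were enriched on beads for the receptor CD117, captured and lysed on a Fluidigm C1 chip, and made into cDNA with the SMARTer kit, and no treatment is labelled. Age, sex and number of the mice are not stated in the sources used here. Each gate was therefore 1 sample with no replicate, no test between gates or classes was possible, and SDs and ranges below describe cells. The transcript of the sort marker itself, Ly6g, was found in 8 CD11b+, 36 Ly6g high and 28 Ly6g low cells, and that of CD11b, Itgam, in 27, 41 and 37. A prefix read here as a run label stands in the column names of the CD11b+ cells alone, so for them gate and run cannot be told apart. The column names of the Ly6g high and Ly6g low cells hold no such prefix, so whether these gates shared a run is not known.

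A deposited file put each cell in 1 of 11 classes, without saying how in the sources used here. Myelo-2 held 14 CD11b+, 27 Ly6g high and 31 Ly6g low cells. Myelo-4 held 3 CD11b+, 13 Ly6g high and 0 Ly6g low cells, and Myelo-3 held 4, 3 and 2 in the same order of gates. Of the other classes with 4 or more cells, Gran-1 had 4 cells, Gran-2 had 6, Mono had 5, Myelo-1 had 5 and HSCP-2 had 7. Multi-Lin, MDP and Eryth had 1 cell each. Because the classes may have been drawn from these same transcripts, differences between them are given as descriptions. Summed primary granule transcripts had a median of 88463 TPM in the 8 Gran-1 and Gran-2 cells of the CD11b+ gate, against 680.4 TPM in its 14 Myelo-2 cells. Summed specific granule transcripts ran the other way, with medians of 4415 TPM in these Gran cells and 243190 TPM in these Myelo-2 cells. Late neutrophil transcripts had a median of 11591 TPM in Myelo-4 and 446.2 TPM in Myelo-2. Genes detected per cell, the only trace of depth that TPM keeps, had a median of 2464.5 in CD11b+, 1695 in Ly6g high and 2521 in Ly6g low cells.

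Promoter windows from RefSeq on build GRCm38.p6, reaching from 250 bases before to 50 bases after the annotated start, were found for 42 of the 55 kept members. The E-box CACGTG, a palindrome that reads the same on both strands and is bound by MYC and related factors, stood in the window of 11 of these 42 genes, or 26.2%. It stood in 12.7% of the 5053 genes that passed the same filter and in 8.09% of all 27025 genes of the table. A match describes the letters in this window only. The sites of the cap-binding protein Eif4e, the cap helicase Eif4a1, the translocase Eef2, Eif5a and the eIF3 subunit Eif3k are shown because these genes carry much of what follows. Each line gives 30 bases on the gene's own strand with the E-box in capitals.
Eef2, chr10:81176576-81176605, plus strand: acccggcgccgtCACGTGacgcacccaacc
Eif4e, chr3:138527028-138527057, plus strand: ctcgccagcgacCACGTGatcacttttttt
Eif4e, chr3:138527192-138527221, plus strand: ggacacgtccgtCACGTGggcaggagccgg
Eif4a1, chr11:69672595-69672624, minus strand: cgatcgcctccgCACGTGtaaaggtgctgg
Eif3k, chr7:28981915-28981944, minus strand: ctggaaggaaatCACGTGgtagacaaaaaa
Eif5a, chr11:69920791-69920820, minus strand: gcgctgcgcggcCACGTGaggtgggggagg
Eif5a, chr11:69921443-69921472, minus strand: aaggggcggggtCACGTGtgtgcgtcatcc

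A run of pyrimidines at the transcription start, a feature of mRNAs whose translation mTOR controls, was searched as C followed by 4 or more C or T, on the gene's own strand and beginning within 5 bases of the annotated start. It stood at 10 of the 42 members, or 23.8%, against 24.9% of the genes that passed the filter and 21.2% of all genes. The member of highest level, Eef1a1, had one, and so did the eIF3 subunit Eif3f and the eIF2 subunit Eif2s3x. In the lines that follow, capitals mark the match whose first C lies nearest to the annotated start, and pyrimidines before that C stay in lower case.
Eef1a1, chr9:78481705-78481734, minus strand: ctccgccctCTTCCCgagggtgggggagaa
Eif3f, chr7:108934405-108934434, plus strand: tctaggctctCTCTCTTTCTCggcaagatg
Eif2s3x, chrX:94212632-94212661, minus strand: gagcattttcCTTTTCTCTCCgagcaagat
The 10 genes with such a run had a median log2 ratio of 1.75 for Gran over Myelo-2 cells of the CD11b+ gate, beside 1.56 for the 32 without it. The 11 genes with an E-box had a median of 1.64 in that comparison and the 31 without it 1.42. For both motifs the order changed between comparisons. For CD11b+ over Ly6g low cells, genes with a run had a median of 0.63 and those without it 0.78. For Ly6g high over Ly6g low within Myelo-2, genes with an E-box had a median of -0.385 and those without it 0.091.

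The summed level of the 63 members was highest in progenitor, monocyte and early granulocyte classes and lowest in Myelo-4. Members took a median of 2.85% of a cell's TPM in HSCP-2, with a range of 1.86% to 3.37% over 7 cells. In Mono the median was 2.56%, from 2.35% to 2.78% over 5 cells. In Gran-2 it was 2.10%, from 1.45% to 2.29%, and in Gran-1 it was 1.71%, from 1.37% to 2.40%. Myelo-1 stood lower, at 0.796% with a range of 0.717% to 1.18%. Myelo-3 had a median of 0.508%, Myelo-4 of 0.269% and Myelo-2 of 0.419%. All 16 Myelo-4 cells were at 0.657% or less, so they did not overlap with any HSCP-2, Mono, Gran or Myelo-1 cell. Myelo-2 ranged from 0.110% to 1.48% over 72 cells and overlapped with Myelo-4 over most of that class's range. Among the single cells, the Eryth cell had 3.49%, the Multi-Lin cell 2.59% and the MDP cell 1.46%. By gate the medians were 0.859% in CD11b+, 0.342% in Ly6g high and 0.484% in Ly6g low cells, with overlapping ranges. Basophil and mast cell markers summed to as much as 222546 TPM in a Ly6g low cell. No class with 4 or more cells exceeded 4766 TPM for them, so this was the MDP cell, whose class name is given here only as deposited.

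**Figure D1:**
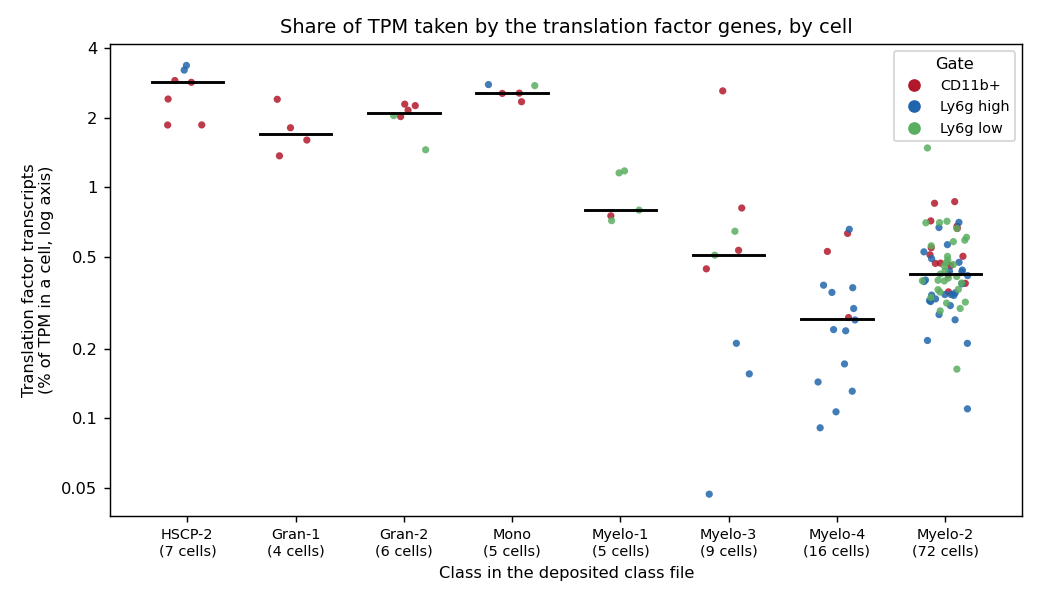
Each dot is 1 cell, coloured by gate, placed by class on the x axis and by the share of its TPM taken by the 63 translation factor genes on a log y axis, with a black bar at the class median. HSCP-2, Gran-1, Gran-2 and Mono cells stand at 1.37% or more, and Myelo-4 cells at 0.657% or less.

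Ribosomal protein transcripts were also high in HSCP-2, Gran and Mono cells, whereas granule transcripts were low there. Ribosomal protein genes took a median of 16.1% of TPM in HSCP-2, 18.8% in Gran-1, 13.2% in Gran-2, 15.9% in Mono, 8.26% in Myelo-1, 2.17% in Myelo-3, 1.49% in Myelo-4 and 2.20% in Myelo-2. By median, Myelo-3 thus stood above Myelo-2 in the members but not in the ribosomal proteins. The mean ribosomal protein share went the other way, at 3.32% in Myelo-3 and 2.63% in Myelo-2. The members' share ran from 0.0469% to 2.61% over the 9 Myelo-3 cells, which spans the whole range of Myelo-2. The 31 granule and late neutrophil genes took 0.240% in HSCP-2, 9.56% in Gran cells, 4.90% in Mono, 18.1% in Myelo-1, 15.3% in Myelo-3, 19.4% in Myelo-4 and 23.7% in Myelo-2, and since TPM is a share, such genes lower the values of all others. After these genes were removed and every cell rescaled, the median ratio of the kept members for Gran over Myelo-2 in the CD11b+ gate was 1.30 on the log2 scale, beside 1.55 as deposited. HSCP-2 cells also held erythroid transcripts, with 2 of 7 markers detected and summed levels of 0 to 3630 TPM. Megakaryocyte markers there summed to between 0 and 2792 TPM with 2 of 4 detected. Basophil and mast cell markers summed to between 0 and 4766 TPM (4 of 4 detected), T and NK cell markers to between 0 and 4889 TPM (3 of 4), B cell markers to between 0 and 1550 TPM (1 of 5) and dendritic markers to between 0 and 509.1 TPM (2 of 4), while 0 of 3 eosinophil markers were detected. The T and NK list shares Nkg7 with the primary granule genes. Its median sum was 765.5 TPM in HSCP-2, but 5632 TPM in Gran-1 and 4964 TPM in Gran-2, where 1 of 4 was detected in each. Flt3 of the dendritic list is listed as a progenitor marker too. The part of these marker transcripts in the result was not tested.

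The number of different members found in a cell followed the number of genes found. A cell held 11 to 52 members in the CD11b+ gate (median 26.5), 6 to 51 in Ly6g high (median 17) and 10 to 50 in Ly6g low (median 26). Per 1000 genes detected these medians were 10.7, 9.32 and 9.96 for the gates in that order. By class, members per 1000 genes lay between a median of 8.44 in Myelo-3 and 11.6 in HSCP-2. The classes thus stood much closer to each other in the count of members per gene found than in the members' share of TPM.

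**Figure D2:**
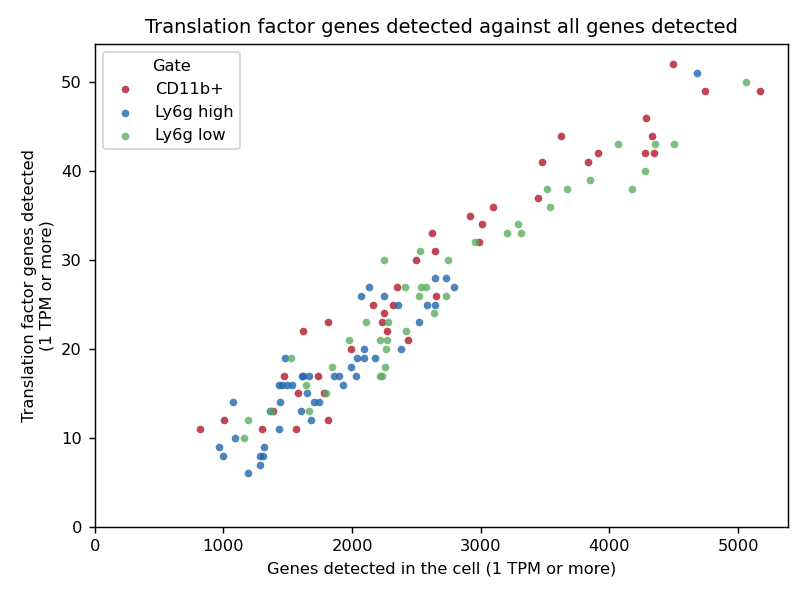
Each dot is 1 cell, with the genes detected on the x axis and the translation factor genes detected on the y axis, coloured by gate. Cells of the 3 gates lie along the same band, from 6 members to 52 members.

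The Eef rows, counted as elongation, took a median of 1.58% of TPM in HSCP-2 and 0.0555% in Myelo-4. These are the ends of their span over the classes with 4 or more cells. The Eif rows, counted as initiation and including Eif5a, took 1.15% and 0.226% in the same classes. Eef1a1, which carries aminoacyl-tRNAs to the ribosome, was the member of highest level. In CD11b+ cells Eef1a1 had a lowest level of 2.63, a median of 3875 and a highest of 19627 TPM. Ly6g high cells had 0.53, 449.1 and 21129 TPM for the same 3 values, and Ly6g low cells 2.75, 1010 and 14499 TPM. The gates overlapped over nearly the whole range. All 7 HSCP-2 cells lay between 6164 and 21129 TPM, all 5 Mono cells between 10145 and 14499 TPM, and all 10 Gran cells between 4867 and 11582 TPM. Myelo-1 cells lay between 2442 and 4050 TPM, below all of these. Myelo-2 cells ran between 5.98 and 6830 TPM with a median of 795.4 TPM, and the highest of them reached into the range of Gran cells. The median of Myelo-4 was 9.735 TPM and that of Myelo-3 was 8.77 TPM. The Myelo-3 mean of 2031 TPM rested on CD11b+ cell 35, which held 92.4% of the class sum and without which the mean was 173.8 TPM. Eef1a1 has many processed copies in the mouse genome, and how the authors' counting divided reads among them is not given in the sources used here.

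Within the CD11b+ gate, the 8 Gran cells had Eef1a1 between 4867 and 11582 TPM (mean 8953), and the 14 Myelo-2 cells between 8.15 and 4354 TPM (mean 1364). These groups did not overlap, and the log2 ratio, taken between means raised by 1 TPM, was 2.71. Within the Ly6g high gate, Eef1a1 averaged 313.5 TPM in 13 Myelo-4 cells and 762.5 TPM in 27 Myelo-2 cells, a log2 ratio of -1.28. The Myelo-4 median was 4.45 TPM against 637.4 TPM in Myelo-2, and 65.7% of the Myelo-4 sum came from Ly6g high cell 79. Among cells with 1500 to 3000 genes detected the direction turned, with a log2 ratio of 0.45 between 3 Myelo-4 and 23 Myelo-2 cells. Eef1a1 reached 100 TPM, a level chosen after its values were seen, in 4 of 13 Myelo-4 cells, or 30.8% (exact 95% binomial interval 9.09% to 61.4%). It did so in 24 of 27 Myelo-2 cells of that gate, or 88.9% (70.8% to 97.6%). Such intervals cover counting error only.

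The translocase gene Eef2 had another pattern. It was detected in all 127 cells, with a lowest level of 11.54, a median of 256 and a highest of 8790 TPM in CD11b+ cells. In Ly6g high cells these values were 6.2, 164.4 and 1167 TPM, and in Ly6g low cells 23.63, 143.3 and 1110 TPM. The gates overlapped widely. Across classes, Eef2 had its highest median in Mono, at 992.9 TPM, and in Myelo-3, at 887 TPM. Myelo-4 had a median of 247.9 TPM and Myelo-2 one of 118.9 TPM, so Eef2 stood higher in Myelo-4 than in Myelo-2 while Eef1a1 stood lower. In the Ly6g high gate the log2 ratio of Myelo-4 over Myelo-2 was 0.81 for Eef2, from means of 278.6 and 158.9 TPM, under the 2-fold mark. The HSCP-2 mean of 1490 TPM rested on CD11b+ cell 21, and without it was 273.4 TPM.

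The balance between the pair differed by class. TPM is corrected for length, so the level of Eef2 can be set beside that of Eef1a1 in the same cell. Eef2 exceeded Eef1a1 in 12 of 16 Myelo-4 cells, or 75% (exact 95% interval 47.6% to 92.7%), and in 8 of 9 Myelo-3 cells, or 88.9% (51.8% to 99.7%). In Myelo-2 it did so in 9 of 72 cells, or 12.5% (5.88% to 22.4%), and in Gran, Mono and Myelo-1 cells in 0 of 20. Fewer genes were detected in Myelo-4, with a median of 1409 per cell, than in Myelo-2, with 2239.5. Among cells with 1500 to 3000 genes detected, Eef2 was the higher of the pair in 1 of 5 Myelo-4 cells and in 8 of 61 Myelo-2 cells, and the exact 95% interval of the Myelo-4 share there was 0.505% to 71.6%. Eef1a1 accounted for a median of 45.9% of the members' summed TPM in HSCP-2, 46.3% in Mono, 43.9% in Gran cells, 35.1% in Myelo-1, 0.164% in Myelo-3, 0.427% in Myelo-4 and 19.04% in Myelo-2.

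The exchange factor subunits Eef1b2, Eef1d and Eef1g, which reload eEF1A with GTP, differed most between Gran and Myelo-2 cells. Eef1g had 165.1, 658.4 and 1270 TPM as lowest, median and highest level in the 8 Gran cells of the CD11b+ gate, and 0, 0 and 90.04 TPM in its 14 Myelo-2 cells. In this gate no Gran cell overlapped with a Myelo-2 cell, only 1 Myelo-2 cell reached 1 TPM, and the log2 ratio of the means was 6.43. Myelo-2 cells of the other gates had higher Eef1g means, at 71.09 TPM in Ly6g low and 46.02 TPM in Ly6g high, against 6.576 TPM in CD11b+. Eef1b2 lay between 200.2 and 853.8 TPM in the Gran cells of the CD11b+ gate. In the Myelo-2 cells of that gate it lay between 0 and 252 TPM, with a log2 ratio of 3.25. In Myelo-4 cells of the Ly6g high gate Eef1b2 averaged 126.2 TPM, against 56.01 TPM in Myelo-2 cells. Of the Myelo-4 sum 96.7% came from Ly6g high cell 70, and without the highest cell of each group the log2 ratio was -2.89. The form of eEF1A known from muscle and neurons, Eef1a2, was detected in 0 of 127 cells, where an exact 95% interval allows up to 2.86%. Eef1e1, a member by symbol, encodes a protein of the tRNA synthetase complex and was listed at 0 in all 13 Myelo-4 cells of the Ly6g high gate.

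Eif5a encodes the factor that helps where ribosomes stall and that carries the modified residue hypusine. Its transcript was detected in 38 of 40 CD11b+, 41 of 46 Ly6g high cells and 40 of 41 Ly6g low cells. Its lowest, median and highest levels were 0, 911.5 and 3991 TPM in CD11b+ cells, 0, 464.2 and 2394 TPM in Ly6g high cells, and 0.56, 636 and 2396 TPM in Ly6g low cells. All gates overlapped. In the CD11b+ gate Gran cells lay between 1410 and 2924 TPM and Myelo-2 cells between 98.63 and 1419 TPM, which overlapped only at 1410 to 1419 TPM, and the log2 ratio was 1.66. Myelo-4 and Myelo-2 cells of the Ly6g high gate averaged 530 and 505 TPM, a log2 ratio of 0.07. Its paralog Eif5a2 was detected in 0 of 127 cells.

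**Figure D3:**
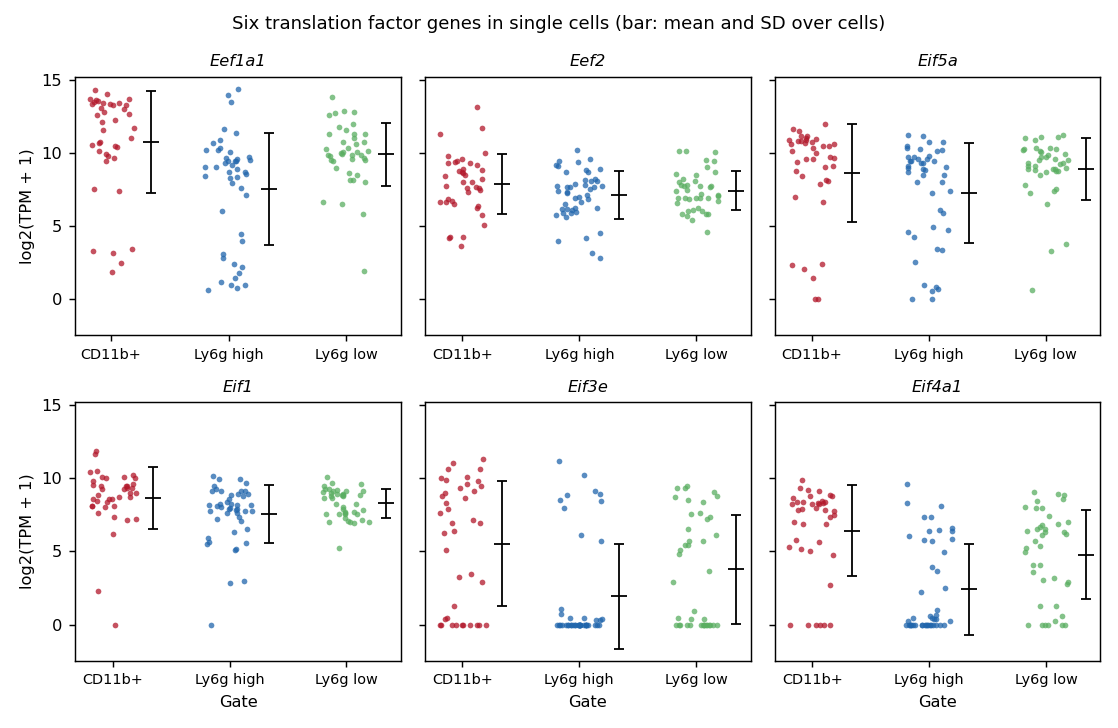
Each dot is 1 cell of the gate on the x axis and the y axis is log2(TPM + 1), with a horizontal bar and whiskers for the mean and SD over cells, for Eef1a1, Eef2, Eif5a, Eif1, Eif3e and Eif4a1. Eef2 and Eif1 are found in nearly every cell of all gates, whereas Eif3e is at or near 0 in many cells and Eif4a1 in most Ly6g high cells.

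Among the factors of start codon search, Eif1 was nearly universal, with detection in 125 of 127 cells. It had 0, 507.1 and 3682 TPM as lowest, median and highest level in CD11b+, 0, 258.1 and 1110 TPM among Ly6g high cells and 36.92, 398.3 and 1096 TPM among Ly6g low cells. Its class medians lay much closer together than those of Eef1a1, at 614.8 TPM in HSCP-2, 357.9 TPM in Gran cells, 477.5 TPM in Mono, 552.9 TPM in Myelo-1, 480.8 TPM in Myelo-3, 235.1 TPM in Myelo-4 and 298.5 TPM in Myelo-2. Unlike most members it was lower in Gran than in Myelo-2 cells of the CD11b+ gate, at means of 376.4 and 812.4 TPM and a log2 ratio of -1.11. These groups overlapped, since the Myelo-2 cells ran between 73.14 and 3166 TPM. Myelo-2 cells of the other gates had Eif1 means near that of these Gran cells, at 352.8 TPM in Ly6g low and 331.8 TPM in Ly6g high. The paralog Eif1b was found in 48 cells, each of which also had Eif1, while 77 cells had Eif1 alone. For eIF1A, the X-linked Eif1ax was found alone in 49 cells, Eif1a alone in 9 and both in 19. The pair is near-identical in sequence, so reads may have been split between them.

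Eif1a had the highest ratio of any member for CD11b+ over Ly6g high cells, at 6.02 on the log2 scale. Its lowest, median and highest levels were 0, 0.27 and 3939 TPM in CD11b+ cells and 0, 0 and 67.85 TPM in Ly6g high cells. It was detected in 18 of 40 CD11b+ and 2 of 46 Ly6g high cells. The CD11b+ mean of 179 TPM drew 55.02% of its sum from cell 13, a Myelo-3 cell, and was 82.58 TPM without it.

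Subunits of the eIF2 complex differed in how often they were found. Eif2s2, the beta subunit, was detected in 32 CD11b+, 26 Ly6g high and 34 Ly6g low cells, or 72.4% of all cells. Eif2s1, the subunit whose phosphorylation slows initiation under stress, was detected in 24 of 40 CD11b+, 11 of 46 Ly6g high cells and 23 of 41 Ly6g low cells. Its mean was 129.8 TPM in CD11b+, 48.03 TPM among Ly6g high cells and 70.64 TPM among Ly6g low cells. In the CD11b+ gate it averaged 184.2 TPM in Gran and 50.06 TPM in Myelo-2 cells, a log2 ratio of 1.86, with overlapping ranges. The tRNA-binding factor Eif2a was detected in 7 of 8 Gran cells and 2 of 14 Myelo-2 cells of the CD11b+ gate, at means of 84.3 and 4.445 TPM and a log2 ratio of 3.97. It was listed at 0 in all 13 Myelo-4 cells of the Ly6g high gate, against a mean of 30.43 TPM in its 27 Myelo-2 cells, of which 7 had it. Eif2d, which can deliver tRNA without GTP, was detected in 3 of 46 Ly6g high cells and 13 of 41 Ly6g low cells, at means of 19.47 and 76.73 TPM and a log2 ratio of -1.93. Eif2s3x was at a log2 ratio of -1.68 in that comparison, with detection in 9 Ly6g high and 13 Ly6g low cells.

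Of the eIF2 kinases, which phosphorylate Eif2s1, Eif2ak1 (HRI, activated when heme is scarce) was detected in 10 CD11b+, 7 Ly6g high and 11 Ly6g low cells, and Eif2ak2 (PKR, activated by double-stranded RNA) in 8, 10 and 16 in that order. Eif2ak1 had means of 33.52 TPM among Ly6g high cells and 9.024 TPM among Ly6g low cells, a log2 ratio of 1.78, although more Ly6g low cells had it. On the difference of mean log2 values this comparison was -0.30. The kinases Eif2ak3, which senses stress in the endoplasmic reticulum, and Eif2ak4, which senses uncharged tRNA, fell outside the filter at 12 and 7 of 127 cells. Just inside it, at 13 cells each, lay Eef2k, Eif2b3 and Eif4ebp3. Also outside were Eif3j1 at 2, Eif2b5 at 8 and Eif4ebp2 at 11 cells, and Eif4e1b at 0.

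The 14 eIF3 rows, of which 13 passed the filter, had summed medians of 7235 TPM in HSCP-2, 3831 TPM in Mono, 3549 TPM in Gran cells, 1608 TPM in Myelo-1, 248.9 TPM in Myelo-3, 99.54 TPM in Myelo-4 and 824.3 TPM in Myelo-2. A cell of the CD11b+ gate held a median of 8.5 subunits at 1 TPM or more, a Ly6g high cell 4 and a Ly6g low cell 7. The scaffold subunits Eif3a and Eif3c were found in all HSCP-2, Gran and Mono cells. Eif3e had 122.4, 574.5 and 2094 TPM as lowest, median and highest level in Gran cells and 0, 42.3 and 783.1 TPM in Myelo-2 cells of the CD11b+ gate, a log2 ratio of 1.98 with overlap. For Eif3k the 8 Gran cells lay between 273.7 and 1298 TPM and the 14 Myelo-2 cells between 0 and 281.8 TPM, which overlapped narrowly, and the log2 ratio was 2.89. In the Ly6g high gate Eif3g reached 1 TPM in 0 of 13 Myelo-4 and 8 of 27 Myelo-2 cells (log2 ratio -5.72). Eif3i did so in 1 Myelo-4 and 6 Myelo-2 cells (log2 ratio -5.42).

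**Figure D4:**
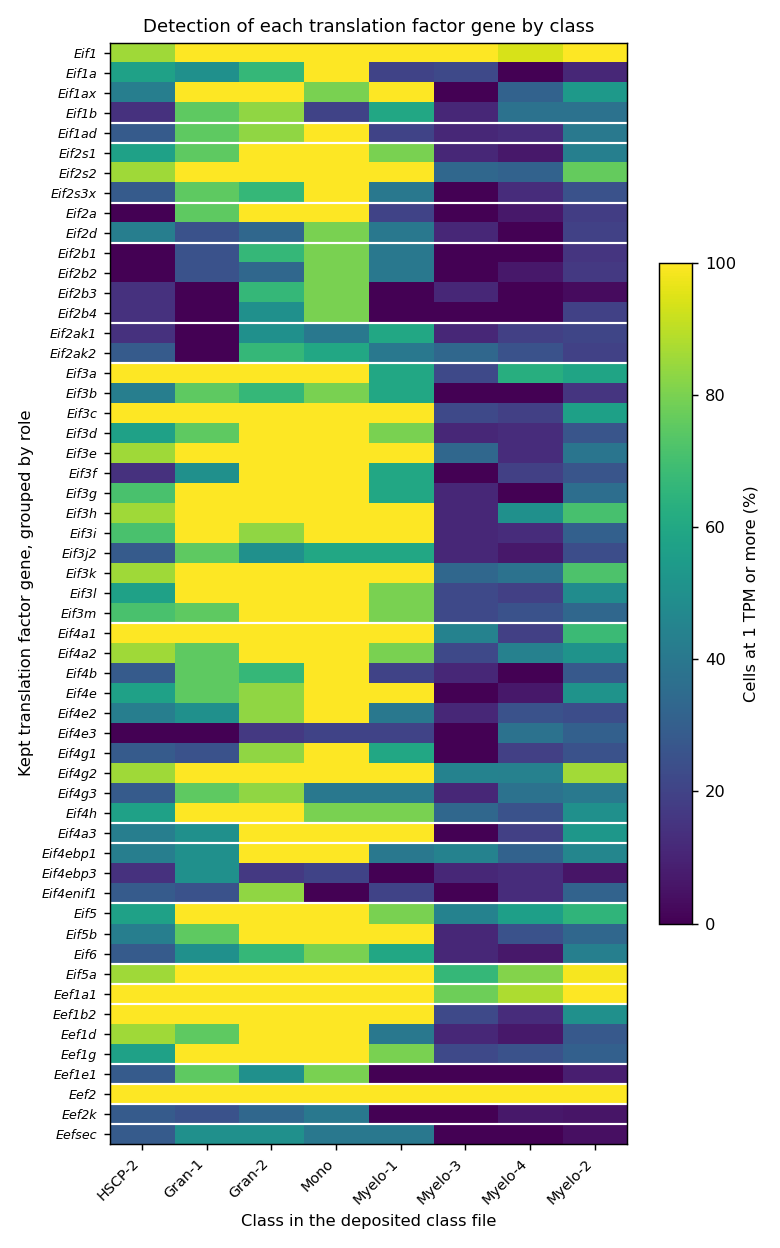
Rows are the 55 kept members grouped by role (white lines), columns are the 8 classes with 4 or more cells, and colour is the share of cells at 1 TPM or more. Eif1, Eef2, Eef1a1 and Eif5a are found in most cells of every class, whereas most other members are frequent in Gran-1, Gran-2 and Mono and rare in Myelo-3 and Myelo-4.

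Cap-binding factors gave some of the largest ratios. The cap-binding protein Eif4e reached 1 TPM in 1 of 13 Myelo-4 and 12 of 27 Myelo-2 cells of the Ly6g high gate. Its lowest, median and highest levels were 0, 0.14 and 1.98 TPM in Myelo-4 cells and 0, 0.25 and 1115 TPM in Myelo-2 cells, so the groups overlapped at the low end. The log2 ratio was -6.84, the lowest of any member in that comparison. Its relatives stood the other way. Eif4e2, a cap-binding repressor, averaged 48.11 TPM in 13 Myelo-4 and 3.941 TPM in 27 Myelo-2 cells (log2 ratio 3.31), with 4 and 3 cells detected. Ly6g high cell 89 gave 66.1% of the Myelo-4 sum, and without it the Myelo-4 mean was 17.69 TPM. Eif4e3, a cap-binding protein of another class, averaged 44.17 and 8.045 TPM (log2 ratio 2.32), of which Ly6g high cell 83 gave 85.8% in Myelo-4. Without it the Myelo-4 mean was 6.817 TPM, and among cells with 1500 to 3000 genes the log2 ratio was -0.77. Eif4e3 was also the lowest member for Gran over Myelo-2 in the CD11b+ gate, at -3.66, where 1 of 8 Gran cells and 4 of 14 Myelo-2 cells had it.

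The helicase Eif4a1 was detected in 34 of 40 CD11b+, 19 of 46 Ly6g high cells and 33 of 41 Ly6g low cells. Levels were 0, 224.2 and 956.7 TPM as lowest, median and highest in CD11b+ cells, 0, 0.33 and 770 TPM in Ly6g high cells and 0, 51.93 and 523.8 TPM in Ly6g low cells. Its log2 ratio was 2.20 for CD11b+ over Ly6g high. The paralog Eif4a2 was found in 22 Ly6g high cells, 14 of which lacked Eif4a1. In CD11b+ and Ly6g low cells, 3 and 2 cells had Eif4a2 alone. The scaffold Eif4g1 was low throughout, with means of 3.888 TPM in CD11b+, 5.407 TPM among Ly6g high cells and 9.329 TPM among Ly6g low cells. The related Eif4g2, which supports initiation without the cap-binding protein, had 161, 64.38 and 99.14 TPM in the same order and was detected in 102 of 127 cells. Eif4ebp1, the repressor that mTOR releases from eIF4E, averaged 80.07 TPM in CD11b+, 43.21 TPM among Ly6g high cells and 68.38 TPM among Ly6g low cells. The factor Eif6, which keeps the large ribosomal subunit from joining the small one too early, had nearly equal means of 47.15, 46.06 and 45.84 TPM but was found in 15, 12 and 24 cells of the gates in that order.

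Over the whole kept set, ratios are read against all 6602 genes. For Ly6g high over Ly6g low, 3 of 55 members were at least 2-fold higher and 11 at least 2-fold lower, beside 13.2% and 26.4% of all genes. That is 5.45% and 20% of members, and the median log2 ratio was -0.35, beside -0.27 over all genes. Among cells with 1500 to 3000 genes detected, 29 Ly6g high and 25 Ly6g low, the direction turned, with a median of 0.22, 14 members higher and 5 lower. Shares over all genes are not given for these cells, so whether the members differ there from other genes is not known. For CD11b+ over Ly6g low, 18 members were higher and 1 lower, where the backgrounds were 31.2% and 9.95%. The median was 0.70, beside 0.47. For CD11b+ over Ly6g high, 30 were higher and 0 lower, with backgrounds of 42.5% and 10.4% and medians of 1.23 and 0.75. The gates had different mixtures of classes. Within Myelo-2 cells alone, a comparison added after the data were seen, the median for CD11b+ over Ly6g low was -0.002, with 12 higher and 13 lower (backgrounds 19% and 30.1%), and for CD11b+ over Ly6g high it was 0.29, with 15 higher and 13 lower (24.1% and 27.1%). Ly6g high over Ly6g low within Myelo-2 gave 8 higher and 10 lower, where the backgrounds were 17.5% and 24.8%, and a median of -0.09.

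Class comparisons within a gate gave wider spans. For Gran over Myelo-2 in the CD11b+ gate, 35 of 55 members were higher and 5 lower, or 63.6% and 9.09%, beside 47.5% and 15.9% of all genes. The median was 1.55, beside 0.88. Gran cells also had more genes detected, with a median of 4093.5 against 2259 in Myelo-2. Higher members included 8 of 13 eIF3 subunits, 3 of 3 eEF1B subunits and 3 of 4 eIF2B subunits, with no member of these groups lower. The largest ratio was that of Eif1ad, an eIF1A domain protein, at 6.78, with 7 of 8 Gran and 0 of 14 Myelo-2 cells at 1 TPM. Its mean was 112.3 TPM in these Gran cells and 0.0329 TPM in these Myelo-2 cells. Myelo-2 cells of the other gates had higher Eif1ad means, at 33.22 TPM in Ly6g low and 51.86 TPM in Ly6g high. For Myelo-4 over Myelo-2 in the Ly6g high gate, 5 members were higher and 30 lower, or 54.5% lower, beside 14% and 49.2% of all genes, and the medians were -1.28 and -0.94. Of the 55 members 7 were listed at 0 in all 13 Myelo-4 cells. The same count over all genes was not made, so this one has no background. Fewer genes were detected in these Myelo-4 cells, with a median of 1318 against 2030 in Myelo-2. Lower members included 10 of 13 eIF3 subunits, with none higher.

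**Figure D5:**
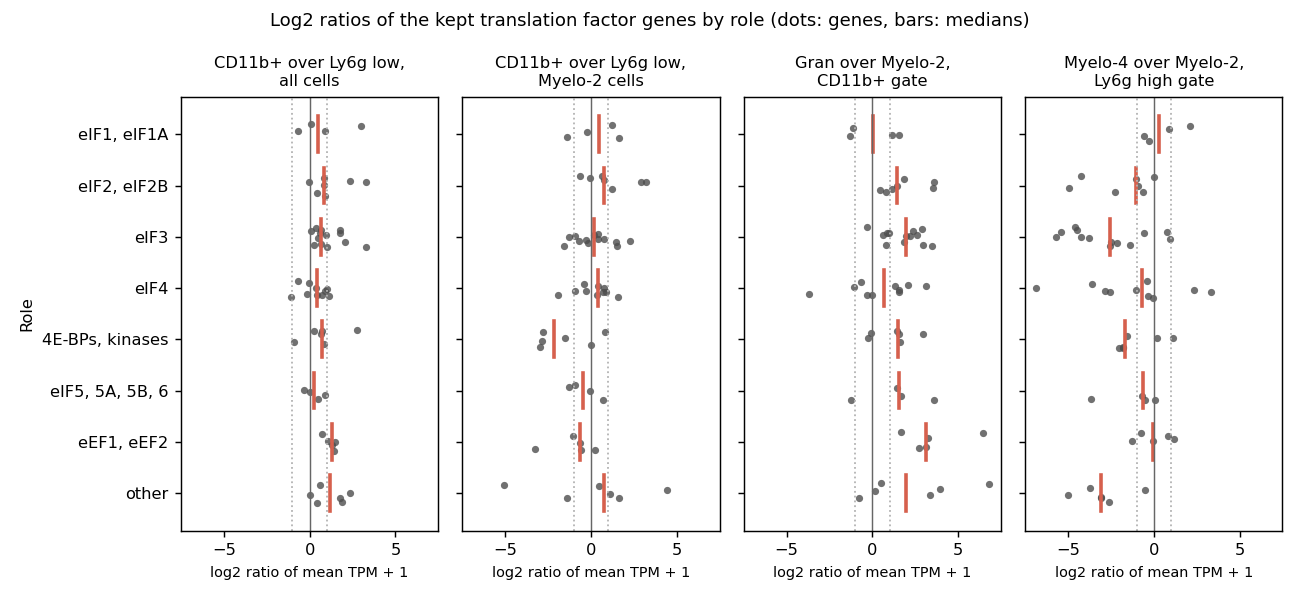
Each dot is 1 kept member, placed by its log2 ratio of mean TPM + 1 on the x axis and by role on the y axis, with a red bar at the median of the role, and dotted lines mark 2-fold. CD11b+ over Ly6g low ratios lie mostly above 0 over all cells and around 0 within Myelo-2 cells, with eEF1 and eEF2 above 0 in Gran over Myelo-2.

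Related groups of genes were listed apart from the members. Of 22 genes of cytosolic aminoacyl-tRNA synthetases and their complex, which charge tRNAs for eEF1A, all passed the filter. For Gran over Myelo-2 in the CD11b+ gate 20 were higher and 1 lower, with a median of 2.30, and the cysteine synthetase Cars averaged 63.15 and 0.258 TPM. Of 9 release, recycling and stop codon factors 6 passed the filter, with 5 higher and 0 lower and a median of 2.07. Of 12 poly(A)-binding and initiation helper genes 10 passed, with 6 higher and 0 lower. The translation inhibitor Pdcd4, which binds eIF4A, averaged 867.4 TPM in Gran and 20.48 TPM in Myelo-2 cells. Of 15 mTOR and MNK signalling genes 8 passed, with 6 higher and 0 lower. For Myelo-4 over Myelo-2 in the Ly6g high gate, the eIF4E kinase gene Mknk1 averaged 177.1 and 11.87 TPM, a log2 ratio of 3.79, among 2 higher and 5 lower genes of that list. Of 13 listed integrated stress response genes 5 passed, with 3 higher and 2 lower for CD11b+ over Ly6g high. Atf4, whose translation increases when Eif2s1 is phosphorylated, averaged 325.8 TPM in CD11b+, 69.94 TPM among Ly6g high and 114.9 TPM among Ly6g low cells. Ppp1r15b of the same list stood the other way, at 3.885, 26.54 and 16.62 TPM in the same order of gates. The backgrounds are those given for these comparisons.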

How the data were processed

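Single-cell cDNA was read as 150 bp pairs, per the labels. The authors deposited 1 table of log2(TPM + 1) values, the unit being read from the values, since TPM summed to between 999633 and 1005383 in every cell. Bowtie2, RSEM and build mm9 are named, per the submitters' processing notes, with versions and gene annotation not given in the sources used here. Columns that no sample could be given numbered 0. Read depth is unknown, because TPM keeps none.

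Values were turned back to TPM. Each group was the mean TPM over its cells, and groups were compared as the log2 ratio after adding 1 TPM, which understates ratios of low genes. A gene at least 2-fold apart was counted, with no test, because cells of 1 sample are not replicates. All cells were used, with no doublet caller, and the cells were not clustered again. Copies of near-identical genes may share reads. Named members were the 12 of highest mean, a fixed set of regulators and isoform pairs, and up to 4 per direction in each of 6 comparisons at 2-fold or more with the same sign in mean log2 values. The E-box and pyrimidine genes, the Eef2 to Eef1a1 balance and Eif3a, Eif3c and Eif4a1 by role were chosen after values were seen. The members and lists were chosen with earlier results of these data known. Alternatives covered the pseudocount, filter, kind of mean, scaling, highest cells, genes detected and class. Scripts used Python 3.11.15, numpy 2.4.6, pandas 2.3.3, scipy 1.17.1 and matplotlib 3.10.9. The ratio step was tested on resampled Ly6g low cells in which changes of known size were planted. The counting and highest-cell steps had a brief check on made-up values.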

Additional observations from a re-analysis of the deposited data

Results flagged for a closer look

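Of 36 sets of cells of 1 class examined for a cell far from the others, 4 held one, at a level of distance set to mark about 1 in 20 sets by chance. CD11b+ cell 35 stood apart from the other 8 Myelo-3 cells in 3 measures that share its Eef1a1 level. The members took 2.61% of its TPM, against 0.0469% to 0.813% in the others. Elongation factors took 1.94%, against 0.00754% to 0.328%. Eef1a1 made up 64.6% of the members' TPM, against 0.0426% to 23.9%. Ly6g low cell 6 stood apart from the other 5 Gran-2 cells, with members at 1.45% of TPM, against 2.02% to 2.29%.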

How the results depend on the processing

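Of 769 recomputed values of named members 504 were counted as the same, 242 as moved and 23 as reversed in sign. With the difference of mean log2 values, 49 were the same, 95 moved and 5 reversed. In any gate, 18 of 55 kept members drew 50% or more of their summed TPM from 1 cell, and in Ly6g high 16 did. Of 153 recomputed summary values 116 moved by 1.5 times or less. The others are given here as numbers of kept members at least 2-fold higher or lower, or as median log2 ratios. They stand here without the shares of all genes under the same settings. With a pseudocount of 10 TPM, 5 were lower for Ly6g high over Ly6g low, 0 lower for CD11b+ over Ly6g low, and the Myelo-4 over Myelo-2 median was -0.66. Under this setting 3 were lower for Gran over Myelo-2, and 4 were higher and 6 lower for Ly6g high over Ly6g low within Myelo-2. With the difference of mean log2 values, Ly6g high over Ly6g low had 0 higher and 25 lower, CD11b+ over Ly6g low had 11 higher, Myelo-4 over Myelo-2 had 2 higher, and the within-Myelo-2 comparison had 0 higher. Gran over Myelo-2 then had a median of 2.35 and 1 lower. Single members that changed sign were Eif2ak1 at -0.30 for Ly6g high over Ly6g low and -0.45 within Myelo-2, Eef1b2 at -1.45 for Myelo-4 over Myelo-2, Eif6 at 0.87 for Gran over Myelo-2 and Eif3i at -0.10 within Myelo-2. With no filter 2 were lower for CD11b+ over Ly6g low and 1 for CD11b+ over Ly6g high. With granule genes removed the same counts were 2 and 1.

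Without the highest cell of each gene, 0 were lower for CD11b+ over Ly6g low, 2 for CD11b+ over Ly6g high, 3 for Gran over Myelo-2 and 16 within Myelo-2. Myelo-4 over Myelo-2 then had a median of -2.21 and 3 higher. Eif4ebp3 was at -0.11 for CD11b+ over Ly6g low, Eef1b2 at -2.89 for Myelo-4 over Myelo-2 and Eef1e1 at -0.25 within Myelo-2. Restricted to cells with 1500 to 3000 genes, Ly6g high over Ly6g low had 14 higher and 5 lower, CD11b+ over Ly6g low had 5 lower, and CD11b+ over Ly6g high had 14 higher, 8 lower and a median of 0.30. Myelo-4 over Myelo-2 had a median of -3.08 from 3 and 23 cells. There Eef1a1 was at 0.45, Eef1b2 at -6.01, Eif2ak1 at -4.77 and Eif4e3 at -0.77, and Eef1g was at -0.72 for CD11b+ over Ly6g high. Gran over Myelo-2 could not be computed with this restriction, since 1 Gran cell was left. The CD11b+ median share of TPM was 0.547% among these cells and 0.506% in Myelo-2 cells. Restricted to Myelo-2, an alternative chosen after the data were seen, CD11b+ over Ly6g low had a median of -0.002 and 13 lower, and CD11b+ over Ly6g high had a median of 0.29, 15 higher and 13 lower. In the comparison with Ly6g low, Eef1b2 was then at -0.63, Eef1g at -3.25, Eef2 at -0.57 and Eif4ebp3 at -2.96. In that with Ly6g high, Eef1b2 was at -0.17, Eef1g at -2.63, Eef2 at -0.51, Eif2s1 at -0.10, Eif3i at -0.17 and Eif3k at -0.85. The cause was not tested for any of these.

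Leaving out single cells, also chosen after the data were seen, gave 7 lower for Ly6g high over Ly6g low without Ly6g low cell 38, a median of -2.02 for Myelo-4 over Myelo-2 without Ly6g high cell 79, and 3 lower for Gran over Myelo-2 without CD11b+ cell 2. The 1 lower member for CD11b+ over Ly6g low became 2 without any one of CD11b+ cells 1, 14, 18, 25, 29, 32 and 44, and 0 without any one of Ly6g low cells 6, 10, 13, 15 and 25. The 0 lower for CD11b+ over Ly6g high became 1 without any one of CD11b+ cells 1, 10, 14, 19, 32 and 40, and 2 without CD11b+ cell 25. No paired analysis was possible because the numbers in the cell names only name cells and no test was made.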

Other observations

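Mitochondria use translation factors of their own, and 5 of the 9 listed genes passed the filter. For CD11b+ over Ly6g high cells 4 were at least 2-fold higher and 0 lower, with a median log2 ratio of 3.30, where 42.5% and 10.4% of all genes were higher and lower. The mitochondrial elongation factor Gfm1 averaged 21.48 TPM among CD11b+ cells and 0.919 TPM among Ly6g high cells, and Tsfm, which recharges the mitochondrial tRNA carrier, averaged 23.19 and 1.079 TPM. For Gran over Myelo-2 cells of the CD11b+ gate 3 were higher and 0 lower, beside 47.5% and 15.9% of all genes. Of the makers of hypusine and diphthamide, the modified residues of eIF5A and eEF2, 4 of 7 passed the filter. For Ly6g high over Ly6g low 0 were higher and 2 lower, beside 13.2% and 26.4% of all genes, among them the hypusine hydroxylase Dohh, which averaged 0.0933 TPM among Ly6g high cells and 7.169 TPM among Ly6g low cells. With 1 sample per gate none of these differences has a replicate check.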
